A study of Homo sapiens with 6 samples.

Results

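The genes described here encode the VEGF and PDGF growth factors, FGF2 and the neuropilins, and their mRNA was measured in DU145 cells with or without taraxasterol (TAX) treatment. They were taken by gene symbol, 10 of the 23062 identifiers in the deposited tables, and are VEGFA, VEGFB, VEGFC, PGF, PDGFA, PDGFB, PDGFC, FGF2, NRP1 and NRP2. DU145 is an established androgen-independent prostate cancer cell line. The comparison was between 3 control cultures, kept in MEM medium for 48 h, and 3 cultures given the IC50 dose of TAX, a plant triterpene, for 48 h. All 6 cultures were of the same line with no genetic change (genotype labelled WT) and grew in medium with serum. TAX was dissolved in DMSO, and whether the control cultures received DMSO is not stated in the sources used here, so solvent and compound cannot be told apart. The question was how TAX changes gene expression in these cells.

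VEGFA, VEGFB, VEGFC and PGF are secreted dimers that bind the receptor tyrosine kinases FLT1, KDR and FLT4, which are best known from blood and lymph vessel endothelium. PDGFA, PDGFB and PDGFC belong to the same cystine-knot superfamily and bind PDGFRA and PDGFRB, typical of fibroblasts and pericytes. FGF2 is a heparin-binding ligand of the FGF receptors, and NRP1 and NRP2 are co-receptors shared by VEGFs and class 3 semaphorins. Carcinoma cells are known to secrete such factors to neighbouring vessels and stroma, and PDGFA is also counted among the growth factors upstream of PI3K/AKT signaling.

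The values were taken as FPKM, fragments scaled by transcript length and library depth, so levels of different genes can be compared. The FPKM of a library summed to 322483 to 363724, and read numbers are unknown. Control replicate 3 had the lowest sum and held the lowest value of 58.0% of the tested genes. The epithelial markers EPCAM, CDH1, KRT8, KRT18 and KRT19 were all detected, summing to 428 to 546 FPKM in control and 555 to 606 FPKM in TAX libraries. KRT18 and KRT19 of these 5 had an unadjusted p under 0.05 with higher TAX values, against 7.73% of all tested genes, and adjusted p of 0.411 and 0.336 (limma). KLK3 and KLK2, kallikrein genes of luminal prostate cells, were listed at 0 in all libraries. Of the 5 endothelial markers, CLDN5 was highest and did not exceed 0.145 FPKM in any library, while the defining markers PECAM1 and CDH5 stayed at or below 0.0271 FPKM. Of the 6 fibroblast and pericyte markers, COL1A2, DCN and LUM were listed at 0 throughout, and the list summed to 2.52 to 2.82 FPKM in control and 2.14 to 2.24 FPKM in TAX libraries, most of it COL1A1, which was lower in each TAX library (2.00 ± 0.0947 and 1.44 ± 0.0285 FPKM, SD, n = 3 each). Among 4 leukocyte markers, CD3E was listed at 0 and PTPRC and LYZ stayed near 0, whereas CD68, also a lysosomal gene of other cells, was higher in each TAX library (23.4 ± 3.34 and 33.0 ± 0.483 FPKM, SD, n = 3 each). The adjusted p of COL1A1 and CD68 was 0.197 and 0.0884 (limma), and 17.9% of all tested genes had groups without overlap. The part of the listed markers in the results was not tested.

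VEGFA was by far the most abundant of the 10 mRNAs, and PDGFA showed the largest difference between TAX-treated and control cells on the log2(FPKM + 1) scale. PDGFA was lower after TAX treatment, to 0.612 of the control mean, but its control and TAX libraries overlapped and its adjusted p was 0.380 (limma). In bulk RNA, fewer expressing cells and less mRNA per cell cannot be told apart. VEGFA varied more between libraries of one group than between the groups. VEGFB, VEGFC, PGF, PDGFB, PDGFC, FGF2 and NRP1 had TAX means between 0.988 and 1.15 times the control means. NRP2 was nearly absent.

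In control cells the levels formed a steep order. VEGFA, at 132 ± 43.3 FPKM (SD, n = 3), exceeded NRP1, at 24.2 ± 3.22 FPKM, by 3.89 to 6.80 times in every library. NRP1 lay 1.80 to 2.17 times above VEGFB (12.2 ± 1.35 FPKM, SD, n = 3). A middle group followed with PDGFA at 6.03 ± 2.18, VEGFC at 4.87 ± 0.737 and FGF2 at 4.86 ± 0.226 FPKM (SD, n = 3 each). These 3 genes overlapped over the libraries, and PDGFA was above VEGFC in 2 of 3 control and 0 of 3 TAX libraries. PDGFB (2.26 ± 0.145 FPKM) and PDGFC (2.23 ± 0.579 FPKM) also could not be placed in order, with PDGFB higher in 2 of 3 libraries of each group. PGF, encoding placental growth factor, was at 1.21 ± 0.00792 FPKM (SD, n = 3). NRP2 was at 0.0678 ± 0.0201 FPKM, so that NRP1 exceeded NRP2 by 178 to 561 times. Among the 12359 genes that reached 1 FPKM in 3 libraries or more and were tested, the mean of VEGFA ranked 367 from the top, above 97.0% of these genes, while PGF lay above 4.2%.

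**Figure D1:**
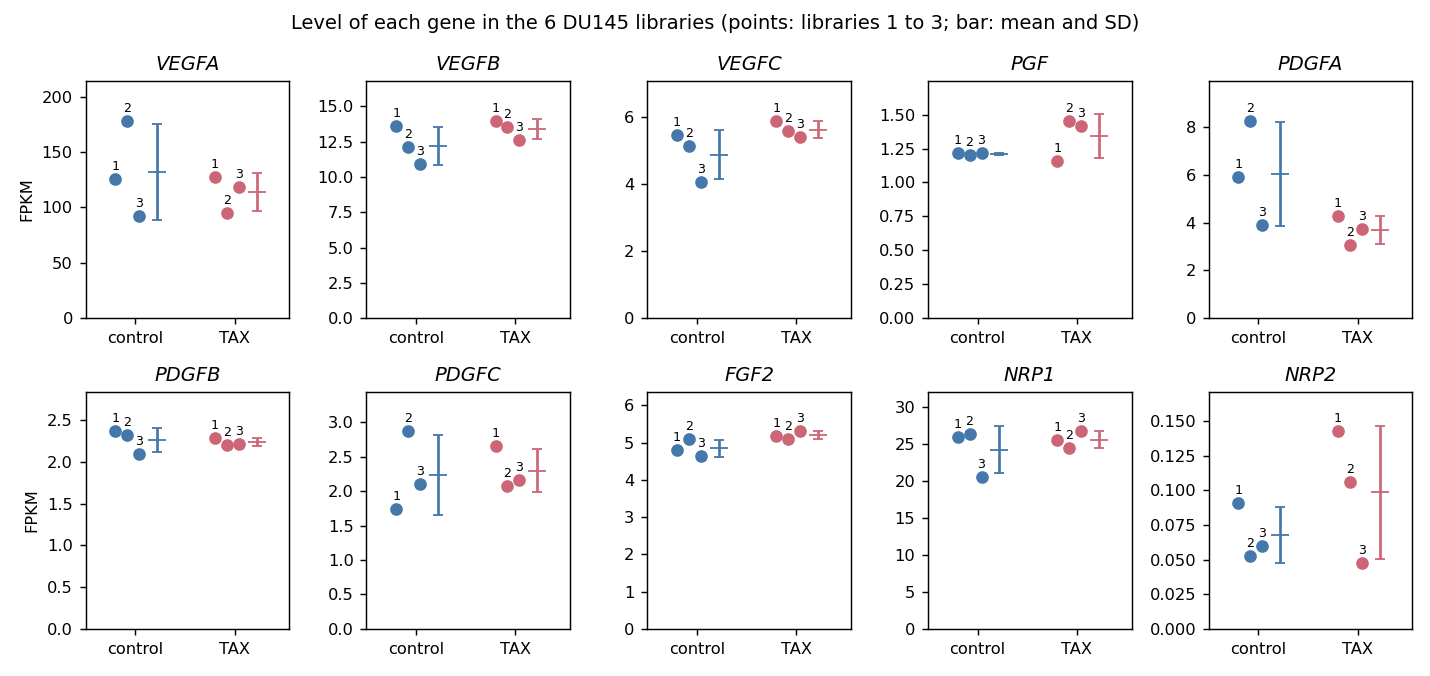
FPKM of each of the 10 genes (vertical axis from 0, own scale per gene) in control and TAX-treated DU145 cells. Points numbered 1 to 3 are the replicate libraries and bars are the mean and SD (n = 3). Control replicate 2 stands highest for VEGFA, PDGFA and PDGFC, and the groups overlap in each panel.

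PDGFA encodes the A chain of platelet-derived growth factor and lies on chromosome 7 from 497258 to 520296 on the minus strand (GENCODE 29, GRCh38). RefSeq promoter sequences (GRCh38.p14, 250 bases before to 50 after a transcript start) were at hand for 6 of the 10 genes, VEGFB, VEGFC, PGF, PDGFA, FGF2 and NRP2, and for PDGFA there are 4 windows. The PDGFA promoter is shown because it belongs to the gene with the largest difference and is a textbook case of a GC-rich promoter bound by SP1 and EGR1. The pair of PDGFA windows with a match to the EGR1 motif GCGGGGGCG, searched on both strands, is printed 5′ to 3′ on the minus strand with the matches in capitals.
PDGFA window chr7:520177-520476: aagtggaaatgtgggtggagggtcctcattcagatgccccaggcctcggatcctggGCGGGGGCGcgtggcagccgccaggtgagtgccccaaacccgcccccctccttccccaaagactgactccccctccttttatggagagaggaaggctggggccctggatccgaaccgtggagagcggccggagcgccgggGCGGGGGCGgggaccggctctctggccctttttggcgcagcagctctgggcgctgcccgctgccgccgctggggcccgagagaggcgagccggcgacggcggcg
PDGFA window chr7:519797-520096: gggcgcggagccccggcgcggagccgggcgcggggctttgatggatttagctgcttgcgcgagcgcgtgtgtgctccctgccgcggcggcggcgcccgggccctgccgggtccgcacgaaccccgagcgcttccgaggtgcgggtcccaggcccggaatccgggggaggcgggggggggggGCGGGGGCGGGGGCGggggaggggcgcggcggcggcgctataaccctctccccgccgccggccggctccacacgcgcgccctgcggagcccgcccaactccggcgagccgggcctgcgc
Each of these windows holds 2 matches, which overlap one another in the window chr7:519797-520096. The motif was found in 5.07% of 35116 promoters of this length, and among the 6 genes in PDGFA and VEGFB. All 6 EGR1 matches in these genes share bases with a GC box (GGGCGG), a motif present in 45.0% of all promoters and in each of the 10 windows of the 6 genes. The letters ACGTG, a form of the hypoxia response element core, were found in none of the 10 windows and in 21.4% of all promoters. The other form, GCGTG, was not counted over the promoters, and it occurs in each of the printed PDGFA windows. G and C made up 70.0% to 84.7% of the 10 windows, against a median of 58.7% over all promoters, so the shares are not compared at like composition. The 10 windows are also not separate promoters, since 4 belong to PDGFA and those of PGF overlap. All matches are of letters only.

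The FPKM of PDGFA was 5.91, 8.26 and 3.91 in the control libraries (replicates 1, 2 and 3) versus 4.26, 3.05 and 3.74 with TAX. Control replicates 1 and 2 lay above all TAX libraries, while control replicate 3 lay below TAX replicate 1. The mean was 6.03 ± 2.18 FPKM in control cells against 3.69 ± 0.605 FPKM with TAX (SD, n = 3 each). On the log2(FPKM + 1) scale, which understates the change of low genes, the difference was -0.54 (standard error 0.19, 95% interval -0.97 to -0.12, unadjusted p = 0.0169 and adjusted p = 0.380 from limma). In the exact two-sided permutation test of PDGFA alone p was 0.2, and 3 libraries against 3 cannot give less than 0.1. Without control replicate 2 the TAX mean was 0.751 times the control mean, with a log2 difference of -0.32 (unadjusted p = 0.0627 from limma), and without TAX replicate 2 the difference was -0.44 (unadjusted p = 0.0588). Without control replicate 3 the difference was larger, at -0.78 (unadjusted p = 0.00134 and adjusted p = 0.123 from limma). PDGFA was the only 1 of the 9 tested members with an unadjusted p under 0.05, against 10.1% of all tested genes. None of the 9 had an adjusted p under 0.05 (limma), against 0.477% of all tested genes, and in none were the groups free of overlap, against 17.9%. With 9 members these counts cannot be told apart from the shares of all tested genes. By real-time qPCR the study reported lower PDGFA mRNA in TAX-treated DU145 cells. The primer pair it used for PDGFA is given to show which transcripts that assay covers.
PDGFA forward primer: agtgtcaagtgccagccctc
PDGFA reverse primer: cggattcaggcttgtggtcg
Both primers were found without mismatch in 4 of the 6 PDGFA transcripts of GENCODE 29, with a product of 150 bases, and together in transcripts of 0 other genes. The FPKM is 1 value over the whole gene and does not separate these transcripts.

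The other PDGF chains, PDGFB, PDGFC and PDGFD, had group means closer to each other than those of PDGFA, and none passed the test. PDGFB, whose product forms BB and AB dimers, had 2.37, 2.32 and 2.10 FPKM in the control libraries (replicates 1, 2 and 3) versus 2.29, 2.21 and 2.22 FPKM in the TAX libraries. The TAX values of PDGFB all lay inside the control range, and its log2 difference was -0.011 (95% interval -0.18 to 0.16, adjusted p = 0.969 from limma). PDGFC, which is secreted with a CUB domain that must be cleaved off, had 1.74, 2.87 and 2.10 FPKM in the control libraries versus 2.65, 2.08 and 2.16 FPKM with TAX. Control replicates 1 and 2 were the lowest and the highest of the 6 values of PDGFC. Its log2 difference was 0.038 (95% interval -0.24 to 0.32, adjusted p = 0.932 from limma). The signs of these differences rest on single libraries, PDGFB being at 0.013 without control replicate 1 and 0.0027 without control replicate 2, and PDGFC at -0.075 without control replicate 1 and -0.038 without TAX replicate 1. PDGFD, a further chain outside the 10 genes, had 1.41 ± 0.0609 FPKM in control cells against 1.35 ± 0.182 FPKM with TAX (SD, n = 3 each, log2 difference -0.040, adjusted p = 0.888 from limma). Within a library, PDGFA was 2.49, 3.56 and 1.86 times PDGFB in the control libraries versus 1.86, 1.39 and 1.69 times in the TAX libraries. The ratio of control replicate 3 (1.864) and that of TAX replicate 1 (1.861) were almost equal.

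**Figure D2:**
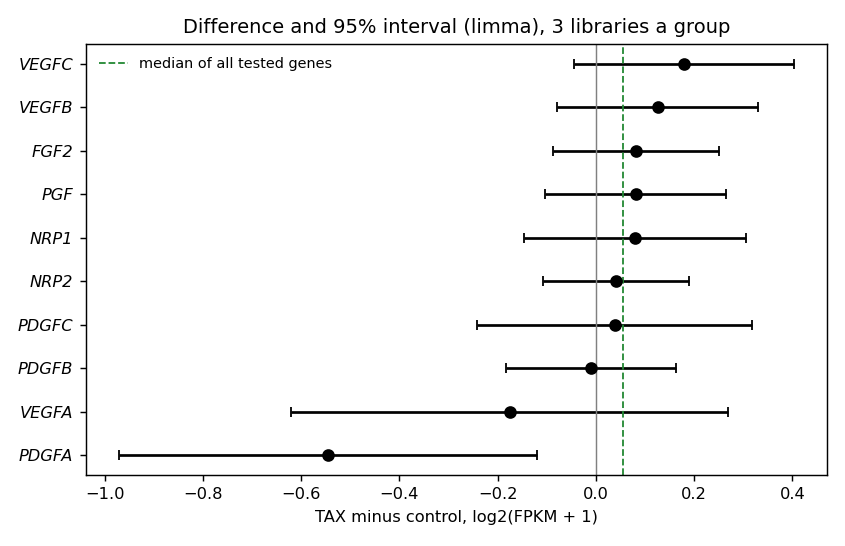
Difference between TAX-treated and control cells for the 10 genes in log2(FPKM + 1), with the 95% interval from limma (3 libraries a group), ordered by size. The dashed line is the median of all tested genes (0.054), and the interval of PDGFA alone leaves out 0.

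VEGFA encodes the main angiogenic VEGF and lies on chromosome 6 from 43770184 to 43786487 on the plus strand. Its FPKM was 125, 178 and 92.6 in the control libraries (replicates 1, 2 and 3) versus 127, 94.7 and 119 with TAX. The highest and the lowest value of VEGFA were both in control libraries, and the TAX values lay between them. The mean was 132 ± 43.3 FPKM in control cells against 114 ± 17.0 FPKM with TAX (SD, n = 3 each), a log2 difference of -0.17 (standard error 0.20, 95% interval -0.62 to 0.27, adjusted p = 0.781 from limma). Without control replicate 2 the sign turned, to 0.066 (adjusted p = 0.862), with a ratio of 1.04. The interval in fold runs from 0.651 to 1.21 on the FPKM + 1 scale, so a lowering of VEGFA by a moderate amount was not detectable here and is not shown to be absent. The spread of VEGFA over libraries was wide beside that of all tested genes, without regard to level. The standard deviation of its log2(FPKM + 1) over the control libraries was 0.470, larger than that of 98.9% of the tested genes, and over the TAX libraries 0.222, larger than that of 95.7%. PDGFA was similar, with 0.458 and 0.189, larger than 98.8% and 93.0%. The median of the tested genes was 0.123 over the control libraries.

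The hypoxia target genes, which HIF1 drives and to which VEGFA itself belongs, were read in the same libraries. The mean log2(FPKM + 1) of 17 tested hypoxia targets other than VEGFA was 5.10, 5.42 and 4.90 in the control libraries (replicates 1, 2 and 3) versus 5.33, 4.94 and 5.22 with TAX. As for VEGFA, control replicate 2 was highest, control replicate 3 lowest and TAX replicate 2 next to lowest, whereas control replicate 1 lay below TAX replicate 3 for the targets and above it for VEGFA. Of all tested genes, 19.4% were highest in control replicate 2 and 58.0% lowest in control replicate 3. Of these 17 genes 0 had an unadjusted p under 0.05 (limma), against 10.1% of all tested genes. So few genes cannot tell these shares apart. The median log2 difference of the 17 genes between TAX and control was 0.042, beside 0.054 for all tested genes. The part of the culture's hypoxia response in the spread of VEGFA was not tested.

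PDGFA and VEGFA were both highest in control replicate 2, but PDGFA was shifted against VEGFA in TAX-treated cells. The FPKM of VEGFA was 21.2, 21.6 and 23.7 times that of PDGFA in the control libraries versus 29.9, 31.0 and 31.7 times in the TAX libraries. The control ratios stayed close together (22.2 ± 1.32, SD, n = 3) although both genes were highest in control replicate 2 and, among the controls, lowest in control replicate 3, and all TAX ratios (30.9 ± 0.918, SD, n = 3) were above them. This ratio does not depend on the scaling of a library. It was chosen after its values were seen and is given without a test. Of the 12358 other tested genes, 0.291% had a ratio of VEGFA to the gene that was higher in all TAX than in all control libraries, and 5.36% one that was lower. For the ratio of PDGFA to each other gene, 58.0% were lower in all TAX libraries and 0.0647% higher.

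**Figure D3:**
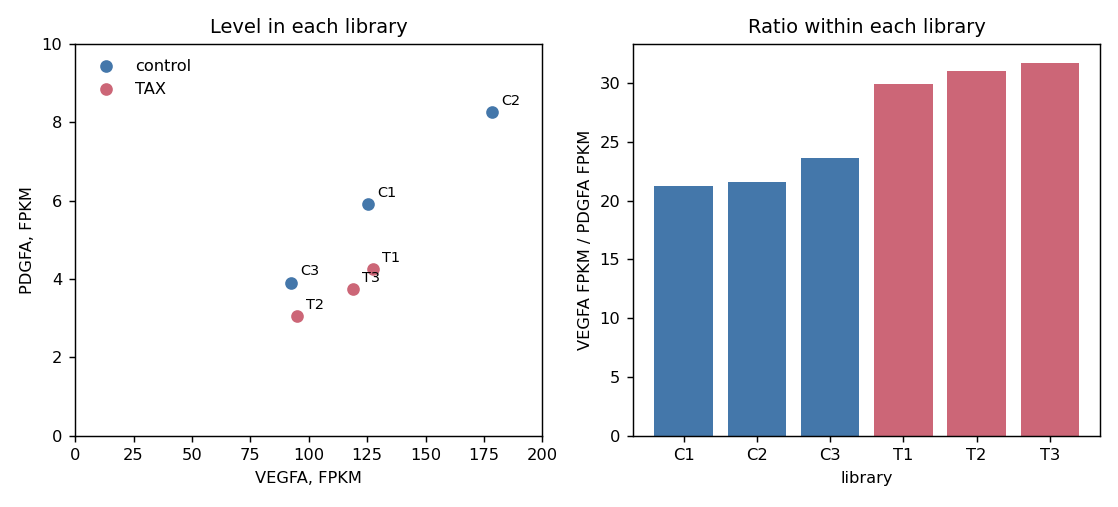
Left, FPKM of VEGFA (horizontal) and PDGFA (vertical) in each library (C1 to C3 control, T1 to T3 TAX). Right, bars give the VEGFA to PDGFA ratio of each library, from 21.2 to 23.7 in control and from 29.9 to 31.7 in TAX libraries.

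The genes whose profile over the 6 libraries was most like that of VEGFA and of PDGFA, the members with the widest ranges (0.94 and 1.19 on the log2 scale), were found by the root mean square difference of log2(FPKM + 1) after centring each gene on its own mean. For VEGFA these were PLIN2, a coat protein of lipid droplets (0.043), RPS6KA5, a kinase downstream of MAP kinases (0.060), WSB1, a ubiquitin ligase subunit (0.068), and DUSP6 (0.069) and DUSP8 (0.073), phosphatases of MAP kinases. PLIN2, for example, had 65.4, 88.3 and 47.9 FPKM in the control libraries versus 66.7, 47.6 and 64.6 FPKM with TAX. The unadjusted p of these 5 was 0.230 to 0.667 (limma). They were picked for likeness to VEGFA, so this lack of a group difference follows largely from the choice. For PDGFA they were ELF3, an epithelial ETS factor (0.096), ARRDC3, an arrestin-like adaptor (0.10), NPIPB12 of a multicopy gene family whose reads are hard to assign (0.11), NR4A1, an immediate early nuclear receptor (0.11), and CCN5, a matricellular protein (0.11). NR4A1, for example, had 15.6, 19.4 and 11.7 FPKM in the control libraries versus 9.91, 8.82 and 9.33 FPKM with TAX. Its groups did not overlap, as in 17.9% of all tested genes (log2 difference -0.65, adjusted p = 0.116 from limma). The unadjusted p of the 5 genes ran from 0.0010 for NR4A1 to 0.0548 for ARRDC3 (limma). Lower TAX values are part of the PDGFA profile by which these genes were picked, so they are no separate result. VEGFA ranked 42 in likeness to PDGFA, and PDGFA ranked 258 in likeness to VEGFA (0.19). The libraries compared are the same for all genes, so shared depth or culture state enters each likeness.

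**Figure D4:**
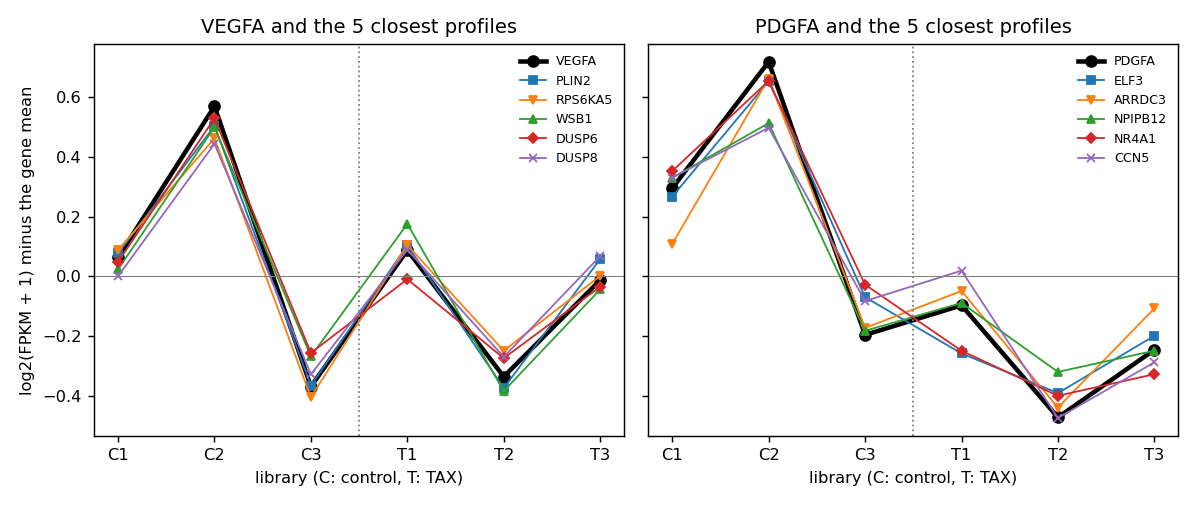
Log2(FPKM + 1) minus the gene's mean over the 6 libraries for VEGFA (left) and PDGFA (right) with the 5 most similar genes of each. The genes were picked for that likeness, so their shared shape is no separate result. Lines join libraries only to guide the eye. The VEGFA group peaks in control replicate 2 and is lowest in control replicate 3 or TAX replicate 2, while all TAX values of the PDGFA group except that of CCN5 in TAX replicate 1 lie below 0.

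VEGFB, VEGFC and PGF had higher means in TAX-treated than in control cells, and none passed the test. VEGFB, a ligand of FLT1 linked to lipid handling, had 13.6, 12.1 and 10.9 FPKM in the control libraries versus 14.0, 13.6 and 12.6 FPKM with TAX, with overlapping groups (log2 difference 0.13, 95% interval -0.079 to 0.33, adjusted p = 0.664 from limma). The difference of VEGFB was 0.054 without control replicate 3 and 0.20 without control replicate 1. VEGFC, the lymphangiogenic ligand of FLT4, had 5.44, 5.13 and 4.04 FPKM in the control libraries versus 5.88, 5.56 and 5.40 FPKM with TAX. Only control replicate 1 kept the groups of VEGFC from separating, at 5.44 against 5.40 in TAX replicate 3. The log2 difference of VEGFC was 0.18 (standard error 0.10, 95% interval -0.044 to 0.40, adjusted p = 0.566 from limma), or 0.073 without control replicate 3, the library with the lowest FPKM sum. PGF had 1.22, 1.20 and 1.22 FPKM in the control libraries versus 1.16, 1.46 and 1.42 FPKM with TAX, so that TAX replicate 1 was below and the other two above the controls (log2 difference 0.081, adjusted p = 0.757 from limma). The difference of PGF was 0.14 without TAX replicate 1, 0.047 without TAX replicate 2 and 0.023 after median centring. VEGFD, a family member outside the 10 genes and below the filter, had 0.211 ± 0.0123 FPKM in control cells against 0.187 ± 0.0509 FPKM with TAX (SD, n = 3 each). The 8 ligands together summed to 160, 215 and 122 FPKM in the control libraries versus 163, 128 and 152 FPKM with TAX, and VEGFA made up 76.2% to 82.8% of the sum in control and 74.2% to 78.3% in TAX libraries. Without VEGFA the sum was 29.0 to 37.0 FPKM in control and 32.9 to 35.4 FPKM in TAX libraries.

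FGF2 was steady, its highest value being 1.14 times its lowest. It had 4.81, 5.10 and 4.66 FPKM in the control libraries versus 5.19, 5.10 and 5.31 FPKM with TAX. Control replicate 2 of FGF2 fell just inside the TAX range, and the log2 difference was 0.083 (95% interval -0.086 to 0.25, adjusted p = 0.724 from limma), which limits a change of FPKM + 1 to between 0.942 and 1.19 times. FGF2 shares 804 exon bases with NUDT6 on the opposite strand, whose mean was 2.76 FPKM without and 2.77 FPKM with TAX, and whether reads were counted by strand is not given in the sources used here. NRP1 had 25.8, 26.3 and 20.5 FPKM in the control libraries versus 25.4, 24.4 and 26.7 FPKM with TAX. Apart from control replicate 3 the NRP1 values lay within a narrow band (log2 difference 0.080, 95% interval -0.15 to 0.30, adjusted p = 0.801 from limma), and without control replicate 3 the difference was -0.031. NRP1 shares 561 exon bases with an antisense gene and VEGFA shares 188. NRP2 was below 0.15 FPKM in each library, with 0.0907, 0.0530 and 0.0598 FPKM in the control libraries versus 0.143, 0.106 and 0.0475 FPKM with TAX, and in a second fit that added such low genes its adjusted p was 0.850 (limma). Over the 9 tested members, 6 had a positive and 3 a negative difference, the median being 0.080 on the log2 scale, beside 0.054 over all tested genes, of which 69.1% were positive.

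The main receptor tyrosine kinases of the VEGF and PDGF ligands other than FLT4 were close to 0 in the same cells. FLT1, KDR, PDGFRA and PDGFRB did not exceed 0.0531 FPKM in any library, and no difference can be read at that level. FLT4, the receptor of VEGFC, had 2.40, 2.24 and 2.16 FPKM in the control libraries versus 1.92, 2.56 and 2.11 FPKM with TAX (log2 difference -0.033, 95% interval -0.24 to 0.17, adjusted p = 0.916 from limma). TAX replicates 1 and 2 enclosed the whole control range of FLT4. Of the receptors of FGF2, FGFR1 and FGFR4 were more abundant than FLT4, whereas FGFR2 and FGFR3 stayed below the filter. FGFR2 had 0.342 ± 0.245 FPKM in control cells against 0.197 ± 0.0759 FPKM with TAX (SD, n = 3 each). FGFR3 had 0.477 ± 0.0203 FPKM against 0.423 ± 0.132 FPKM (SD, n = 3 each). Their adjusted p was 0.676 and 0.821 in the second fit (limma). FGFR1 had 14.1 ± 1.73 FPKM in control cells against 15.1 ± 0.538 FPKM with TAX (SD, n = 3 each, log2 difference 0.096, adjusted p = 0.750 from limma). FGFR4 had 6.79 ± 0.575 FPKM in control cells against 6.75 ± 0.327 FPKM with TAX (SD, n = 3 each, log2 difference -0.0058, adjusted p = 0.984 from limma). Of 10 receptor genes 4 were abundant enough to be tested, and 0 had an unadjusted p under 0.05 (limma). These are too few to set apart from the 10.1% of all tested genes.

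A further 122 genes of the same system, in 9 lists by role, were read from the fit, and 87 of them could be tested. At an unadjusted p under 0.05, 7 were higher and 4 lower after TAX treatment (limma), where all tested genes gave 7.73% and 2.41%. The 11 genes are 12.6% of the 87, near the 10.1% of all tested genes, and 0 had an adjusted p under 0.05. None of the 5 tested related ligands (ADM, MDK and others) and of the 5 tested enzymes that process VEGFs and PDGFs (FURIN, PLAU and others) were among the 11. Of the 7 tested semaphorins, plexins and the neuropilin adaptor GIPC1, SEMA3C was higher. SEMA3C, a neuropilin ligand, had 31.3, 31.9 and 25.2 FPKM in the control libraries versus 34.9, 32.8 and 35.2 FPKM with TAX (log2 difference 0.22, adjusted p = 0.491 from limma). The groups of SEMA3C did not overlap, which held for 17.9% of all tested genes. SEMA3F, another neuropilin ligand, was lower in each TAX library (1.35 ± 0.223 and 1.04 ± 0.0829 FPKM, SD, n = 3 each, unadjusted p = 0.0544 from limma), and SEMA3A, below the filter, was higher in each (0.180 ± 0.0278 and 0.320 ± 0.0310 FPKM, SD, n = 3 each, adjusted p = 0.444 in the second fit). Of the 11 tested genes of heparan sulfate, the glycan that holds VEGFA, PDGFA and FGF2 at the cell surface, SDC1 and NDST1 were higher, SDC1 with 104 ± 5.36 FPKM in control cells against 122 ± 4.70 FPKM with TAX (SD, n = 3 each, adjusted p = 0.406 from limma).

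Among 5 tested binders and inhibitors, THBS1, which binds VEGFA, was lower and COL18A1, the source of endostatin, higher at an unadjusted p under 0.05. Of all tested genes 10.1% were under it, and the adjusted p of COL18A1 was 0.486 (limma). THBS1 had 11.6, 12.8 and 8.86 FPKM in the control libraries versus 8.22, 7.81 and 8.47 FPKM with TAX. Its groups did not overlap, as in 17.9% of all tested genes (log2 difference -0.38, adjusted p = 0.280 from limma). Of the 19 genes that control expression of VEGFA or PDGFA, all of them tested, ETS1 was higher and EGR1 and ZFP36 were lower. These were called at an unadjusted p under 0.05 (limma), against 10.1% of all tested genes. EGR1, the zinc finger factor whose motif is marked in the PDGFA promoter, had 33.2, 50.5 and 28.0 FPKM in the control libraries versus 19.1, 18.1 and 20.7 FPKM with TAX. All TAX values of EGR1 lay below all controls, and 17.9% of all tested genes had groups without overlap in either direction. The part of EGR1 in the PDGFA level was not tested. The log2 difference of EGR1 was -0.87 (standard error 0.17, adjusted p = 0.0731 from limma). ETS1 had 26.3 ± 2.54 FPKM in control cells against 37.7 ± 3.46 FPKM with TAX (SD, n = 3 each, log2 difference 0.50, adjusted p = 0.0731 from limma). ZFP36, which speeds decay of mRNAs such as VEGFA, had 12.4 ± 2.16 and 9.66 ± 0.357 FPKM (SD, n = 3 each, log2 difference -0.32, adjusted p = 0.379 from limma). HIF1A and EPAS1, the oxygen-regulated factors, had log2 differences of 0.084 and -0.19 (adjusted p = 0.765 and 0.546 from limma). Among 14 receptor adaptors, NCK2 and SHB were higher and GAB1 lower at an unadjusted p under 0.05, against 10.1% of all tested genes. Their adjusted p was 0.380 to 0.454 (limma). The median log2 difference of that list was 0.11, the highest of the role lists, beside 0.054 over all tested genes.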

How the data were processed

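Total RNA of 3 control and 3 TAX-treated DU145 cultures was sequenced as mRNA libraries. The submitters' processing notes name HISAT2 2.2.0, StringTie 2.1.2 and GRCh38. The authors deposited 1 FPKM value per gene and library, without pooling. The unit was taken as FPKM because it is the estimate StringTie gives, the values are decimals and their sums differ between libraries, and TPM was not wholly excluded. Annotation, filters and strand use are not given in the sources used here. No read counts were at hand. Among 332 genes under 0.03 FPKM, no bin 0.1 wide held more than 5.72% of the log2 ratios of control replicates 1 and 3, so steps of whole reads were not found, depth is unknown and no counting interval is given.

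Log2(FPKM + 1) was fitted for the 12359 genes that reached 1 FPKM in 3 libraries or more, using limma 3.58.1 (R 4.3.3, eBayes with trend, no covariate) and adjusted by Benjamini-Hochberg over all of them. A second fit over 12397 genes added NRP2 and other listed genes below the filter. The script was tested on simulated data. Nothing in the labels says that the replicates came from separate experiments, so p-values measure only the spread between these samples. Named were the 10 members, up to 4 genes per role list with the smallest unadjusted p under 0.05 in the second fit, 5 canonical receptors and the 5 nearest profiles of the members with the widest range. Other names (ADM, MDK, GIPC1, FURIN, PLAU, HIF1A, EPAS1, VEGFD, PDGFD, FGFR1, FGFR2, FGFR3, FGFR4, NUDT6 and the markers) serve as examples, chosen after values were seen. Some luminal marker genes are not reported here. Members and lists were chosen with earlier results of these data known. Positions are from GENCODE 29 by gene name (all 10 members matched). Alternatives were another pseudocount (0.1), other filters, quantile normalization, median centring, no trend, a replicate block and leaving out each library.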

Additional observations from a re-analysis of the deposited data

How the results depend on the processing

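No member had an adjusted p under 0.05 (limma) in any of the 13 alternatives. The number of members with an unadjusted p under 0.05 was 1, but 0 without a filter on low values (20280 genes) and 0 to 2 when a library was left out. PDGFA was lower in all 13 alternatives (-0.78 to -0.32) and had an unadjusted p under 0.05 in 10, the exceptions being no filter and leaving out control replicate 2 or TAX replicate 2. VEGFC came under it in 1 alternative, without control replicate 1. Signs of small differences turned. When a library was left out, VEGFA ranged from -0.40 to 0.066, PDGFB from -0.048 to 0.013, PDGFC from -0.075 to 0.17 and NRP1 from -0.031 to 0.14, and after median centring PDGFC was at -0.020 and NRP2 at -0.018. The other 122 of 130 member values kept their direction and stayed at an adjusted p above 0.05. Over all genes, 39 higher and 20 lower at an adjusted p under 0.05 became 25 and 12 with the filter at 0.1 FPKM and 0 and 1 without one, where more genes are tested. Lower genes numbered 48 after quantile normalization and 50 after median centring (47 and 46 higher). Leaving out a library gave 9 to 28 higher and 8 to 15 lower. The replicate numbers gave no sign of pairing, since deviations of same-numbered libraries correlated across genes at -0.117, -0.333 and -0.171. Differently numbered libraries correlated at -0.167 to 0.292, the highest being control replicate 3 with TAX replicate 2. With 3 libraries a group this cannot show whether cultures were run side by side. With the replicate block 13 genes were higher, 13 lower and 0 of them members. Causes of these shifts were not tested. Depth being unknown, differences in genes near 0, such as NRP2, KDR and PDGFRB, are judged only by the spread of 3 libraries a group.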
